A study of Mus musculus with 9 samples.

Results

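The Toll-like receptors were followed as 10 genes chosen by name, with earlier results of these data known: Tlr1, Tlr2, Tlr3, Tlr4, Tlr5, Tlr6, Tlr7, Tlr8, Tlr9 and Tlr13, out of 24445 genes in the deposited count table. Where several RefSeq transcripts of a gene were listed, the transcript with most counts stood for the gene. RNA was sequenced from bone marrow-derived macrophages (cells matured in culture from progenitors of the marrow) of wild-type C57Bl/6 mice, as 9 libraries in 3 groups of 3. The control group Veh_N had a vehicle pretreatment of 1 h followed by a further 24 h of vehicle. The group Veh_LPS had the same vehicle pretreatment and was then kept in lipopolysaccharide (LPS), the glycolipid of the outer membrane of Gram-negative bacteria, for 24 h. The group D2HG_LPS had a pretreatment of 1 h with D2HG octyl ester, a cell-permeable form of the metabolite D-2-hydroxyglutarate, and then the same 24 h of LPS. The comparisons show what LPS did to these genes and what the ester given beforehand changed under LPS. No group had the ester alone, so an effect of the ester without LPS was not measured. The sources used here do not give the doses, the age or sex of the mice, or whether the replicates of a group are separate mice or cultures. The p-values therefore cover the spread between these libraries alone, and that spread may be technical.

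Toll-like receptors are membrane proteins that recognise microbial molecules. At the cell surface, Tlr2 binds lipopeptides as a pair with Tlr1 or Tlr6, Tlr4 binds LPS together with MD-2 and CD14, and Tlr5 binds flagellin. In endosomes, Tlr3 binds double-stranded RNA, Tlr7 and Tlr8 single-stranded RNA, Tlr9 unmethylated CpG DNA and Tlr13 bacterial ribosomal RNA. Ligand binding recruits the adapters MyD88 or TRIF, and in macrophages this leads to activation of NF-kappaB and interferon regulatory factors and to cytokine production.

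Counts in genes ranged from 9451258 to 13759935 per library. Levels are given as CPM, counts scaled to a library of 1000000 after correction by the trimmed mean of M values (TMM), and levels of different genes are compared only as CPM per kilobase (kb) of transcript. The 8 macrophage markers summed to 15030 to 16910 CPM in Veh_N, 12090 to 12370 in Veh_LPS and 12140 to 12590 in D2HG_LPS. Under LPS 3 of them were called higher and 4 lower by edgeR, where 35% of all tested genes were called higher and 38.9% lower. These markers included Fcgr1 at 2.90 and Csf1r at -1.42 on the log2 scale. Some markers of other cells were near 0: Siglech (plasmacytoid dendritic cells) had 1 to 5 counts, Cd3e (T cells) 0 to 1 and Ly6g (neutrophils) 0 to 6. Klk1 and Pdgfra had 0 in all 9 libraries. Other markers were not near 0, such as the neutrophil markers S100a9 (153 to 407 counts) and Ltf (80 to 119). Of the conventional dendritic cell markers, Xcr1 had 6, 3 and 4 counts in Veh_N and 50, 50 and 68 in Veh_LPS. Clec9a had 2, 3 and 2 against 21, 21 and 26, while Cd209a went from 10, 15 and 15 to 1, 1 and 0. Summed levels of these lists also differed between groups. The 5 plasmacytoid dendritic cell markers summed to 122 to 137 CPM in Veh_N and 446 to 472 in Veh_LPS, nearly all from Tcf4, and the 4 T cell markers present in the table to 1.008 to 1.24 and 18.4 to 32.4, nearly all from Lck. For 7 neutrophil markers these ranges were 25.2 to 34.2 and 55.8 to 71.8 CPM, for 5 conventional dendritic cell markers 1.66 to 2.74 and 7.80 to 9.01, and for 5 stromal markers 0.235 to 0.552 and 1.98 to 3.50. In D2HG_LPS the sums were 408 to 447 CPM for plasmacytoid dendritic cells, 19.4 to 22.1 for T cells, 53.4 to 66.3 for neutrophils, 7.998 to 9.87 for conventional dendritic cells and 1.07 to 1.45 for stromal cells. Cd79b, a B cell marker, fell under LPS (log2 fold change -1.90, edgeR adjusted p = 6.27e-06). The part of these cells in the results was not tested. In bulk RNA, fewer cells of a type and less RNA per cell cannot be told apart.

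A pair of libraries stood apart from the others of their groups. On the second principal component, which held 2.92% of the variance, Veh_N replicate 1 was at 20 and Veh_LPS replicate 3 at 27.4, while the other 7 libraries lay between -15.9 and 3.93. In both, counts in transcripts that matched no gene were also higher (2.37% and 2.28%, against 0.676% to 1.93% elsewhere). Nearly all of these counts were in 1 transcript, which held 2.25% and 2.08% of all counts. D2HG_LPS replicate 1, with 1.93% unmatched (1.71% in that transcript), was at -10.9 on the second component. Veh_N replicate 1 and Veh_LPS replicate 3 had the highest Tlr4, Tlr7, Tlr8 and Tlr13 levels of their groups, so the results that rest on them are also given without them. What set these libraries apart was not tested.

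Most members changed with LPS. By the quasi-likelihood test of edgeR, with p-values adjusted by Benjamini-Hochberg over 11622 genes, 6 members rose in Veh_LPS over Veh_N (Tlr1, Tlr2, Tlr3, Tlr6, Tlr7, Tlr9), 2 fell (Tlr4, Tlr13) and Tlr8 was not called. Tlr5 is left out of this count, because it passed the filter on low counts only through the Veh_N libraries. LPS called 73.9% of all tested genes, 35% higher and 38.9% lower, so that 8 called of 9 members is read against a high background. The median log2 fold change of these 9 was 1.86, against -0.07 over all tested genes. With Tlr5 left out here too, the libraries of both groups did not overlap for 5 members that were higher and for Tlr13, which was lower. Of all tested genes 73.5% did not overlap, 34.5% higher and 39% lower.

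**Figure D1:**
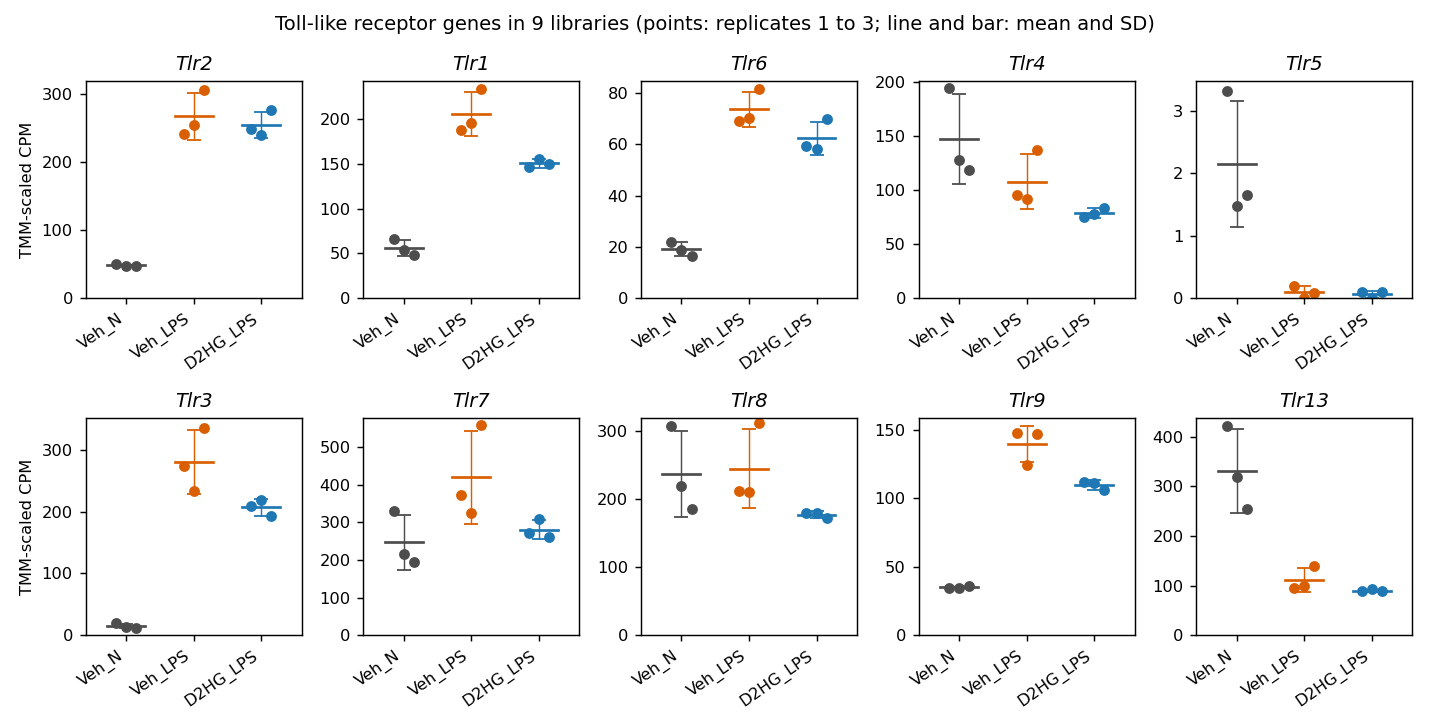
TMM-scaled CPM (linear vertical axes starting at 0) of the 10 Toll-like receptor genes in Veh_N, Veh_LPS and D2HG_LPS, with 1 point for each library and the mean and SD of 3 libraries as line and bar. Tlr1, Tlr2, Tlr3, Tlr6 and Tlr9 are higher in all LPS-treated libraries than in any Veh_N library, Tlr5 and Tlr13 lower, and Veh_N replicate 1 and Veh_LPS replicate 3 are the high points of Tlr4, Tlr7 and Tlr8 in their groups.

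The lipopeptide receptors rose together. Tlr2, the subunit common to both pairs, measured 49.9, 47.7 and 47.6 CPM in the 3 Veh_N libraries and 242, 254 and 306 CPM in Veh_LPS. Every Veh_LPS library was far above every Veh_N library, and the log2 fold change was 2.47 ± 0.10 (SE, n = 3 per group; edgeR adjusted p = 1.67e-10). Tlr1, which with Tlr2 senses triacylated lipopeptides, measured 66.3, 53.8 and 48.6 CPM in Veh_N and 187, 195 and 232.5 CPM in Veh_LPS. Its groups did not overlap either, with a log2 fold change of 1.86 ± 0.12 (edgeR adjusted p = 1.25e-08). Tlr6, which with Tlr2 senses diacylated lipopeptides, measured 22.1, 18.7 and 16.7 CPM in Veh_N and 69.0, 70.3 and 81.4 CPM in Veh_LPS. All 3 Veh_LPS libraries lay above the Veh_N ones (log2 fold change 1.94 ± 0.12, edgeR adjusted p = 1.09e-08).

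The Tlr1 and Tlr6 genes lie next to each other on chromosome 5 and their transcripts share sequence. The longest stretch identical between them is 229 bases, and 12.5% of the 50-base windows of the Tlr6 transcript also occur in that of Tlr1, against a longest shared stretch of 18 bases for any other pair of members. The sources used here do not say how reads from such stretches were assigned, so the split between Tlr1 and Tlr6 is uncertain. Within a library, where scaling plays no part, the ratio of Tlr1 to Tlr6 counts was 2.997, 2.88 and 2.91 in Veh_N and 2.71, 2.77 and 2.86 in Veh_LPS, slightly lower and without overlap. The ratio of Tlr2 to Tlr1 counts was 0.752, 0.887 and 0.979 in Veh_N and 1.29, 1.30 and 1.32 in Veh_LPS.

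The LPS receptor itself was called lower, and both the size and the call depended on the settings. Tlr4 measured 195, 127.5 and 118.5 CPM in Veh_N and 95.1, 91.7 and 137 CPM in Veh_LPS. The groups overlapped through Veh_LPS replicate 3, which lay above Veh_N replicates 2 and 3. The log2 fold change was -0.44 ± 0.18 (edgeR adjusted p = 0.0450). Without Veh_N replicate 1 it was -0.19 and no longer called (edgeR adjusted p = 0.234), without Veh_LPS replicate 3 it was -0.65 (edgeR adjusted p = 0.00404), and without both it was -0.40 (edgeR adjusted p = 2.09e-04). The call was also lost without Veh_LPS replicate 1 (-0.35) or 2 (-0.33). Without any 1 of the D2HG_LPS libraries (-0.44 to -0.43), or with the replicate number as a block (-0.44), the fold change was nearly the same and the edgeR adjusted p was 0.0551 to 0.0641. Upper-quartile scaling gave -0.76 (edgeR adjusted p = 0.00127) and library totals alone -1.11 (edgeR adjusted p = 6.87e-05), scalings that lowered the median of all tested genes. Within a library the ratio of Tlr4 counts to those of Ly96, which encodes MD-2, was 13.2, 14.2 and 13.4 in Veh_N and 5.57, 6.09 and 5.33 in Veh_LPS. That of Cd14 to Tlr4 was 1.16, 1.86 and 1.81 in Veh_N and 10.1, 11.3 and 7.50 in Veh_LPS.

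Tlr5, the flagellin receptor, was the lowest member in all 3 groups and was near 0 under LPS. It had 48, 25 and 21 counts in the Veh_N libraries and 2, 0 and 1 in Veh_LPS, with 1, 0 and 1 in D2HG_LPS. No LPS-treated library reached the lowest Veh_N library. Over the summed counts (94 against 3), scaled for library size, the level in Veh_N was 22.0-fold that in Veh_LPS, with an exact 95% interval of 7.3 to 108.6 that covers counting error only. Since Tlr5 entered the tested genes only through Veh_N, the group where it was high, no test is given for its fall.

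Among the endosomal receptors, Tlr3 and Tlr9 rose. Tlr3, the double-stranded RNA receptor, measured 19.0, 12.8 and 12.2 CPM in Veh_N and 273, 233 and 336 CPM in Veh_LPS. This was the largest increase of the family, at 4.26 ± 0.18 on the log2 scale (edgeR adjusted p = 2.42e-10), and the groups were far apart. Tlr9, the CpG DNA receptor, was tight in Veh_N at 34.6, 34.7 and 35.6 CPM and measured 148, 124 and 147 CPM in Veh_LPS. Its groups did not overlap, and the log2 fold change was 2.00 ± 0.09 (edgeR adjusted p = 3.09e-10).

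The single-stranded RNA receptors Tlr7 and Tlr8, neighbours on the X chromosome, parted under LPS. Tlr7 measured 330.4, 216 and 196 CPM in Veh_N and 374, 325.5 and 560 CPM in Veh_LPS. Veh_N replicate 1 overlapped with Veh_LPS, and the log2 fold change was 0.76 ± 0.21 (edgeR adjusted p = 0.00500). It was 1.03 without Veh_N replicate 1, 0.51 without Veh_LPS replicate 3 and 0.77 without both, called each time. Tlr8 measured 308, 219 and 185 CPM in Veh_N and 213, 210.2 and 313 CPM in Veh_LPS, and the ranges of both groups nearly coincided. The log2 fold change of Tlr8 was 0.05 ± 0.18 (edgeR adjusted p = 0.818), and its sign was not stable. With upper-quartile scaling it was -0.27, and with library totals alone it was -0.62 and called, while these scalings moved the median of all tested genes by -0.32 and -0.67. Tlr7 was 0.09 and not called with library totals alone. The ratio of Tlr7 to Tlr8 counts within a library does not depend on scaling. It was 1.07, 0.985 and 1.06 in Veh_N and 1.76, 1.55 and 1.79 in Veh_LPS, without overlap.

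Tlr13, the receptor for bacterial ribosomal RNA, fell. It measured 421, 319 and 254 CPM in Veh_N and 95.9, 98.2 and 139 CPM in Veh_LPS. No Veh_LPS library reached the lowest Veh_N library, and the log2 fold change was -1.58 ± 0.17 (edgeR adjusted p = 3.38e-06), or -1.56 without both libraries that stood apart. The ratio of Tlr3 to Tlr13 counts went from 0.0450, 0.0399 and 0.0479 in Veh_N to 2.85, 2.37 and 2.42 in Veh_LPS.

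**Figure D2:**
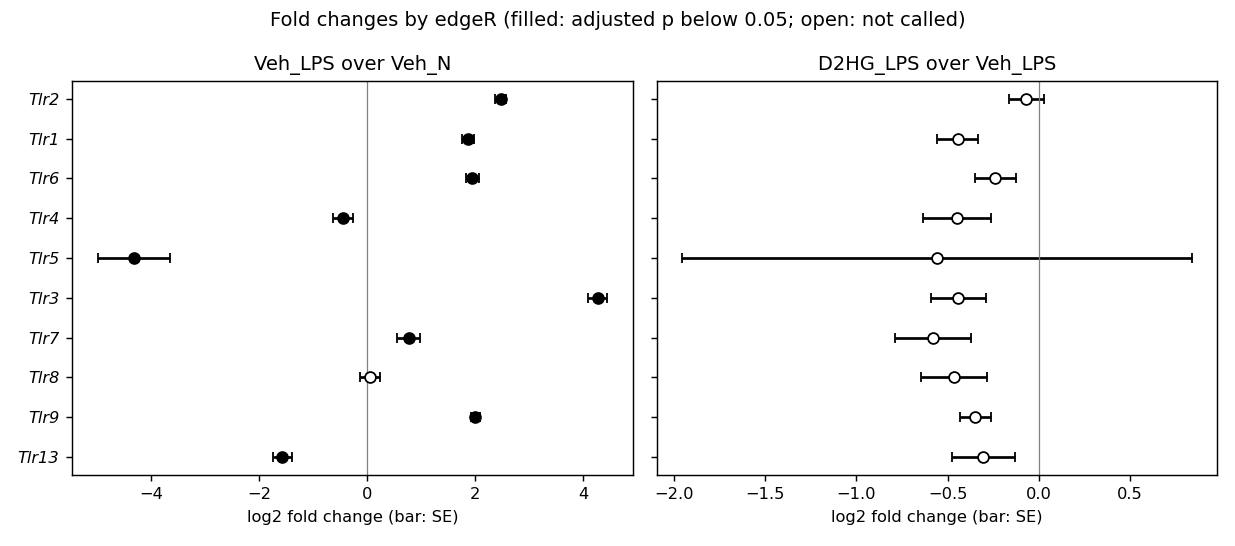
Log2 fold changes by edgeR with SE (horizontal axes, a different range in each panel) of the 10 members in Veh_LPS over Veh_N (left) and D2HG_LPS over Veh_LPS (right), filled where the adjusted p was below 0.05. Under LPS the values run from -4.33 for Tlr5 to 4.26 for Tlr3, with 9 filled points. Tlr5 is among them although it passed the filter only through Veh_N. Tlr8, near 0, turns negative with upper-quartile scaling or library totals. In the ester comparison all 10 are open and below 0, but Tlr5 was too low for a comparison.

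The promoters of the members that rose and fell most are shown because these genes moved in opposite directions under the same stimulus. They are from RefSeq (build GRCm38.p6), 250 bases before to 50 after a start site, and 8 of the 10 members had an entry (not Tlr4 and Tlr7). Each is written 5′ to 3′ on the gene's strand, with capitals for a match to a searched motif on either strand. The first 3 genes rose and the last 2 fell.
Tlr3 (chr8:45410331-45410630, minus strand): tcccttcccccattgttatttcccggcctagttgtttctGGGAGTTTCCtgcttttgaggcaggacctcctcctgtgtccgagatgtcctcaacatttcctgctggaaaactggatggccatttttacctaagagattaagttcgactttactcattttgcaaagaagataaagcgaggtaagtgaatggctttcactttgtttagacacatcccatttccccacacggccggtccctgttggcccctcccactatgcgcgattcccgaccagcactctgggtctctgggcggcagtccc
Tlr2 (chr3:83841559-83841858, minus strand): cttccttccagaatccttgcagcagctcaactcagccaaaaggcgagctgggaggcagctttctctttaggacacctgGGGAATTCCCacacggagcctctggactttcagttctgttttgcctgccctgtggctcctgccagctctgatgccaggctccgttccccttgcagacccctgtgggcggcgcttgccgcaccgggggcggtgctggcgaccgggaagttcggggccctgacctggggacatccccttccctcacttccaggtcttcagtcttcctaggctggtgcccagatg
Tlr9 (chr9:106222348-106222647, plus strand): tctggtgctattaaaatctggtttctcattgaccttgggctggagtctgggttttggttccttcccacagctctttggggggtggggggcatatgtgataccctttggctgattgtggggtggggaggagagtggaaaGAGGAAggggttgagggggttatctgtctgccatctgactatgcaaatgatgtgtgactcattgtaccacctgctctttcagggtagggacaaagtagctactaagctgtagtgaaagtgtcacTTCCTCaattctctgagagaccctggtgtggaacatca
Tlr5 (chr1:182954538-182954837, plus strand): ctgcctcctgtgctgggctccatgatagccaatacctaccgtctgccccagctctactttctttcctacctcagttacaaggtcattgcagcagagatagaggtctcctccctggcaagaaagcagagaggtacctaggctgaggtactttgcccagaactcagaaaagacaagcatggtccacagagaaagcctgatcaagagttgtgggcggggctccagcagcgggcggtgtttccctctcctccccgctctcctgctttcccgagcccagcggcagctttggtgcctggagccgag
Tlr13 (chrX:106143025-106143324, plus strand): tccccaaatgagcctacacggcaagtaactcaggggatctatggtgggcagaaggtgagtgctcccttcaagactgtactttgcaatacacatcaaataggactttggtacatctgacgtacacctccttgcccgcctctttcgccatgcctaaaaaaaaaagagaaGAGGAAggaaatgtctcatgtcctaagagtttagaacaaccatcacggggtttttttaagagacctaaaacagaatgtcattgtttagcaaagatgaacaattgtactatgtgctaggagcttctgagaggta
The motifs searched were the interferon-stimulated response element, the kappaB motif, the gamma-activated site (TTCNNNGAA) and an ETS motif (GAGGAA). Of 32851 promoters of this length, 3.44%, 5.8%, 8.3% and 28.3% held them, in that order. Tlr3 held a kappaB match from -211 to -202 and Tlr2 one from -172 to -163, counted from the start site as 0. Tlr9 held an ETS match from -112 to -107 and another from 12 to 17, Tlr13 one from -83 to -78, and no searched motif matched in the Tlr5 window. Windows not printed held matches too. A Tlr6 window held interferon-stimulated response elements from -116 to -107 and -110 to -101, and another held gamma-activated sites from -3 to 5 and 7 to 15. Tlr1 held a gamma-activated site (-228 to -220) and, in another window, an ETS match (-23 to -18). Tlr8 held a gamma-activated site (-106 to -98) and an ETS match (-77 to -72). A match describes these letters only.

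Per kb of transcript, the order of the receptors changed with LPS. In Veh_N the highest were Tlr13 at 81.6 ± 20.8 CPM per kb (mean ± SD, n = 3), Tlr8 at 69.2 ± 18.5 and Tlr7 at 63.5 ± 18.6, whose ranges overlapped each other. They were followed by Tlr4 (36.0 ± 10.2), Tlr1 (18.6 ± 3.0), Tlr2 (16.1 ± 0.42), Tlr9 (10.1 ± 0.15), Tlr6 (5.21 ± 0.75), Tlr3 (3.32 ± 0.86) and Tlr5 (0.671 ± 0.316), and of these neighbours only Tlr1 and Tlr2 overlapped. In Veh_LPS the order was Tlr7 (107.8 ± 31.7), Tlr2 (88.7 ± 11.4), Tlr8 (71.5 ± 17.1), Tlr1 (67.7 ± 8.0) and Tlr3 (63.7 ± 11.7), each overlapping with the next. Below them came Tlr9 (40.1 ± 3.8), then Tlr13 (27.3 ± 5.9) and Tlr4 (26.5 ± 6.2), which overlapped, and then Tlr6 (20.01 ± 1.8) and Tlr5 (0.0297 ± 0.0309). In D2HG_LPS Tlr2 (84.5 ± 6.2) stood above Tlr7 (72.1 ± 6.3) without overlap, and Tlr8 (51.8 ± 1.3), Tlr1 (49.7 ± 1.6) and Tlr3 (46.9 ± 3.0) followed, each overlapping with the next. The rest were Tlr9 (31.5 ± 0.99), Tlr13 (22.1 ± 0.50), Tlr4 (19.4 ± 1.1), Tlr6 (16.97 ± 1.7) and Tlr5 (0.0204 ± 0.0177), with overlap between Tlr4 and Tlr6 alone.

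As shares of the summed CPM per kb of the family, which do not depend on scaling, Tlr7, Tlr8 and Tlr13 together made up 67.9% to 72.1% in Veh_N and 37.7% to 43.3% in Veh_LPS. Tlr13 alone went from 26.8% ± 1.3 to 5.31% ± 0.25 (SD, n = 3). Tlr3 went from 1.09% ± 0.05 to 12.4% ± 0.70 and Tlr2 from 5.45% ± 1.08 to 17.4% ± 1.3, while Tlr7 was at 20.7% in both groups. The 5 surface receptors made up 24.2% to 26.9% in Veh_N, 37.7% to 42.5% in Veh_LPS and 41.3% to 45.9% in D2HG_LPS. Between Veh_LPS and D2HG_LPS the shares of all members overlapped except those of Tlr2 (16.4% to 18.8% and 19.8% to 23.3%) and Tlr13 (5.02% to 5.49% and 5.58% to 5.64%), both higher in D2HG_LPS.

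**Figure D3:**
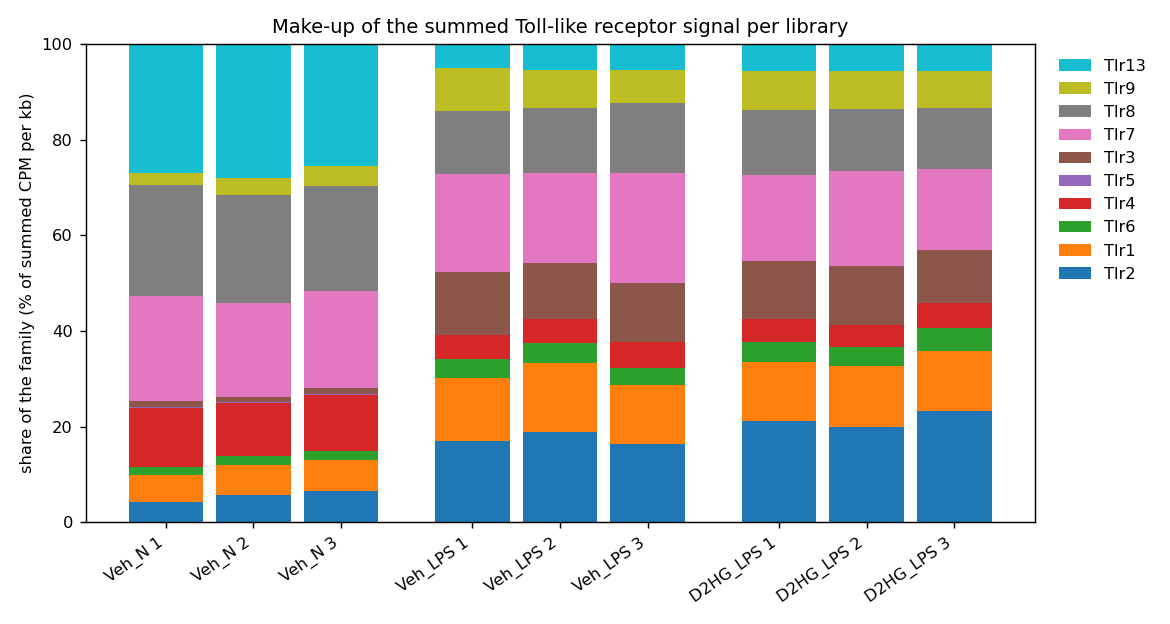
Share of each member in the summed CPM per kb of the 10 members (vertical axis, %), with 1 stacked bar for each of the 9 libraries. Tlr13, Tlr8 and Tlr7 fill 67.9% to 72.1% of each Veh_N bar, while Tlr2, Tlr1 and Tlr3 widen in the 6 LPS-treated bars.

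The comparison of D2HG_LPS with Veh_LPS shows what the ester changed under LPS. No member was called by edgeR, where 2.11% of all tested genes were called, 0.955% lower. With Tlr5 left out as too low to compare, the log2 fold changes of the 9 other members were all negative, against 48.3% of all tested genes. Their median was -0.44, against 0.01 over all tested genes. At an unadjusted p below 0.05, 6 members were lower (Tlr1, Tlr3, Tlr4, Tlr7, Tlr8, Tlr9), against 7.71% of all tested genes lower at that level. DESeq2 called 2 members and limma-voom 0. For 7 members every D2HG_LPS library lay below every Veh_LPS library, a pattern seen in 12.4% of all tested genes. The members share their libraries, and Veh_LPS replicate 3 was the highest of its group for 8 of the 10 members, Tlr5 included. Veh_N replicate 1 was the highest of its group for 9 of the 10, all but Tlr9.

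The lowest adjusted p belonged to Tlr9. It measured 112, 111 and 106 CPM in D2HG_LPS, all below the 124 to 148 CPM of Veh_LPS. Its log2 fold change was -0.35 ± 0.08 (edgeR adjusted p = 0.0526; 0.00355 by DESeq2). Tlr1 came next, at 146, 156 and 149.5 CPM in D2HG_LPS against 187 to 232.5 in Veh_LPS, again without overlap. Its log2 fold change was -0.45 ± 0.11 (edgeR adjusted p = 0.0683; 0.00846 by DESeq2). Without Veh_LPS replicate 3 these were -0.31 and -0.34, and neither was called by edgeR (adjusted p = 0.145 and 0.198).

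Tlr2 and Tlr6 differed less. Tlr2 measured 248, 240.1 and 276 CPM in D2HG_LPS, within the spread of Veh_LPS, with a log2 fold change of -0.07 ± 0.09 (edgeR adjusted p = 0.773) that became 0.04 without Veh_LPS replicate 3. Tlr6 measured 59.3, 58.1 and 69.8 CPM, with 1 library inside the Veh_LPS range, and a log2 fold change of -0.24 ± 0.11 (edgeR adjusted p = 0.337). The ratio of Tlr2 to Tlr1 counts was 1.70, 1.54 and 1.85 in D2HG_LPS, above all 3 Veh_LPS values (1.29 to 1.32). The ratio of Tlr1 to Tlr6 counts was 2.46, 2.68 and 2.14, below all 3 Veh_LPS values (2.71 to 2.86). These ratios have no test here.

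The differences of Tlr7, Tlr8, Tlr4, Tlr3 and Tlr13 shrank without Veh_LPS replicate 3. Tlr7 measured 273, 309 and 261 CPM in D2HG_LPS, against 325.5 to 560 in Veh_LPS, a log2 fold change of -0.58 ± 0.21 (edgeR adjusted p = 0.193) that was -0.32 without Veh_LPS replicate 3. Tlr8 measured 180.0, 180.4 and 172.5 CPM, against 210.2 to 313, a log2 fold change of -0.47 ± 0.18 that was -0.25 without it. Tlr4 measured 75.2, 78.3 and 84.0 CPM, against 91.7 to 137, a log2 fold change of -0.45 ± 0.19 that was -0.24 without it. None of these 3 genes was called in the fit without Veh_LPS replicate 3 (edgeR adjusted p = 0.511 to 0.653). Tlr3 measured 209, 218 and 192 CPM, against 233 to 336 in Veh_LPS (log2 fold change -0.44 ± 0.15, and -0.29 without Veh_LPS replicate 3). Tlr13 measured 88.2, 92.1 and 89.3 CPM, against 95.9 to 139 (log2 fold change -0.30 ± 0.17, and -0.11 without it). Tlr5 was too low in both groups for a comparison. Over the 10 members, Tlr5 included, the median without Veh_LPS replicate 3 was -0.27, against 0.01 over all tested genes in that fit. No member was called there, where 151 of 11846 tested genes were. Only Tlr1 and Tlr9 were at an unadjusted p below 0.05 by edgeR. The share of all tested genes at that level in this fit was not counted.

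Leaving out Veh_N replicate 1, which is in neither group compared but enters the shared estimate of spread, gave 4 called members in this comparison (Tlr1, Tlr3, Tlr7, Tlr9), all lower, and leaving out both libraries that stood apart gave the same 4. Calls over all tested genes rose as well in these fits, from 245 of 11622 to 501 of 11739 and 565 of 11722. Fold changes with Veh_N replicate 1 left out were those of all 9 libraries, at -0.45, -0.44, -0.58 and -0.35.

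**Figure D4:**
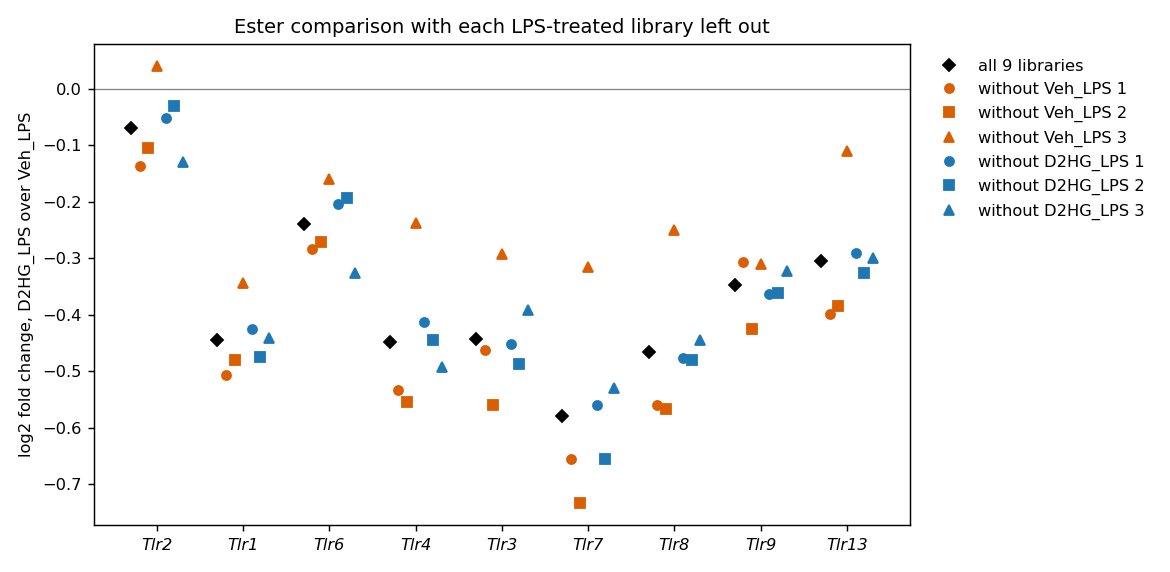
Log2 fold change of D2HG_LPS over Veh_LPS (vertical axis) for 9 members, leaving out Tlr5, from all 9 libraries (diamonds) and with each of the 6 LPS-treated libraries left out in turn (other symbols). Leaving out Veh_LPS replicate 3 moves most members nearest to 0, to -0.32 for Tlr7 and -0.11 for Tlr13, and turns Tlr2 to 0.04.

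Against Veh_N, the D2HG_LPS cells had 5 members called higher (Tlr1, Tlr2, Tlr3, Tlr6, Tlr9) and 2 lower (Tlr4, Tlr13), Tlr5 again left out of the count, where 72.6% of all tested genes were called, 35.4% higher and 37.2% lower. This comparison shares its libraries with both others, so its values are only set beside theirs. The log2 fold changes were 1.42 for Tlr1, 2.40 for Tlr2, 3.82 for Tlr3, 1.70 for Tlr6 and 1.65 for Tlr9. Those of the falling members were -0.89 for Tlr4 (edgeR adjusted p = 8.73e-04) and -1.88 for Tlr13. The summed Tlr5 counts were 94 in Veh_N and 2 in D2HG_LPS. Tlr7, called higher in Veh_LPS, was not called here, at 0.18 ± 0.21 (edgeR adjusted p = 0.437), and its sign turned with upper-quartile scaling (-0.11) and library totals (-0.42). It was 0.45 and called without Veh_N replicate 1 (edgeR adjusted p = 0.0253). Tlr8 was -0.42 ± 0.18 (edgeR adjusted p = 0.0521), and its call depended on the setting. It was -0.18 without Veh_N replicate 1 (edgeR adjusted p = 0.251), and was called lower without Veh_N replicate 3 (-0.56) or Veh_LPS replicate 3 (-0.41), without both libraries that stood apart (-0.18), in a fit of only both groups (-0.40), with upper-quartile scaling (-0.71), with library totals (-1.02) and with the share of unmatched counts as a covariate (-0.38).

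The genes that serve the receptors moved in both directions under LPS. Of 47 genes in 5 lists, 46 were tested, and 26 were called higher and 11 lower in Veh_LPS over Veh_N, with a median log2 fold change of 0.38. As 73.9% of all tested genes were called, 35% higher and 38.9% lower, these counts and those of the single lists are descriptions and set the pathway apart from nothing. Among co-receptors, 3 of 4 rose, led by Cd14 (2.16 ± 0.09, edgeR adjusted p = 1.22e-10), with Ly96 at 0.84 ± 0.23 and Cd36, a scavenger receptor, at 0.72 ± 0.20. Lbp, the LPS-binding protein, was at -0.71 ± 0.32 and not called (edgeR adjusted p = 0.0587). Of 12 genes for folding, transport and processing of the receptors, 5 rose and 4 fell. Rab7b, a small GTPase of late endosomes, was at -1.52, Cnpy4 at -1.33 and the protease Lgmn at -0.82, while Ap3b1, an adaptor protein subunit for endosomal sorting, was at 0.99. All 4 were called.

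Of 6 adapters 5 were tested, and 3 rose. Myd88, the adapter of all members except Tlr3, was at 2.52 ± 0.09 (edgeR adjusted p = 5.21e-11), Pik3ap1 at 2.14 and Ticam1, which encodes TRIF, at 0.91, while Ticam2 fell (-0.36). Of 15 kinases and ubiquitin ligases 8 rose and 4 fell. Irak2 was at 3.18, Ikbke at 2.22, Tbk1 at 1.45 and Tab2 at 1.41, all called. Of 10 inhibitors 7 rose and 2 fell, with Nfkbia (IkappaB alpha) at 4.99, Tnfaip3 (A20) at 5.58, Irak3 (IRAK-M) at 1.07 and Socs1 at 7.31. Socs1, among those that rose, was low in Veh_N, with 31 summed counts (0.552 to 0.940 CPM) against 3458 in Veh_LPS. Sigirr, which dampens signalling of the receptor family, was called lower at -2.53 and Cd180, a surface relative of Tlr4, higher at 1.88.

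In the ester comparison 0 of these 46 genes were called by edgeR, where 2.11% of all tested genes were called. At an unadjusted p below 0.05 were 10 of them, where 15.8% of all tested genes were. Their median log2 fold change was -0.04. Examples were Rab7b at 0.29 ± 0.08 (edgeR adjusted p = 0.0945), Pik3ap1 at -0.30 ± 0.09 (edgeR adjusted p = 0.105), Ly96 at -0.53 ± 0.23 and Cd180 at -0.41 ± 0.15. Of the others with small p, values were 0.38 for Cnpy4 and for Tab1, 0.21 for Ikbkb, -0.19 for Ikbke, -0.30 for Tnfaip3 and -0.34 for Irak3.

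**Figure D5:**
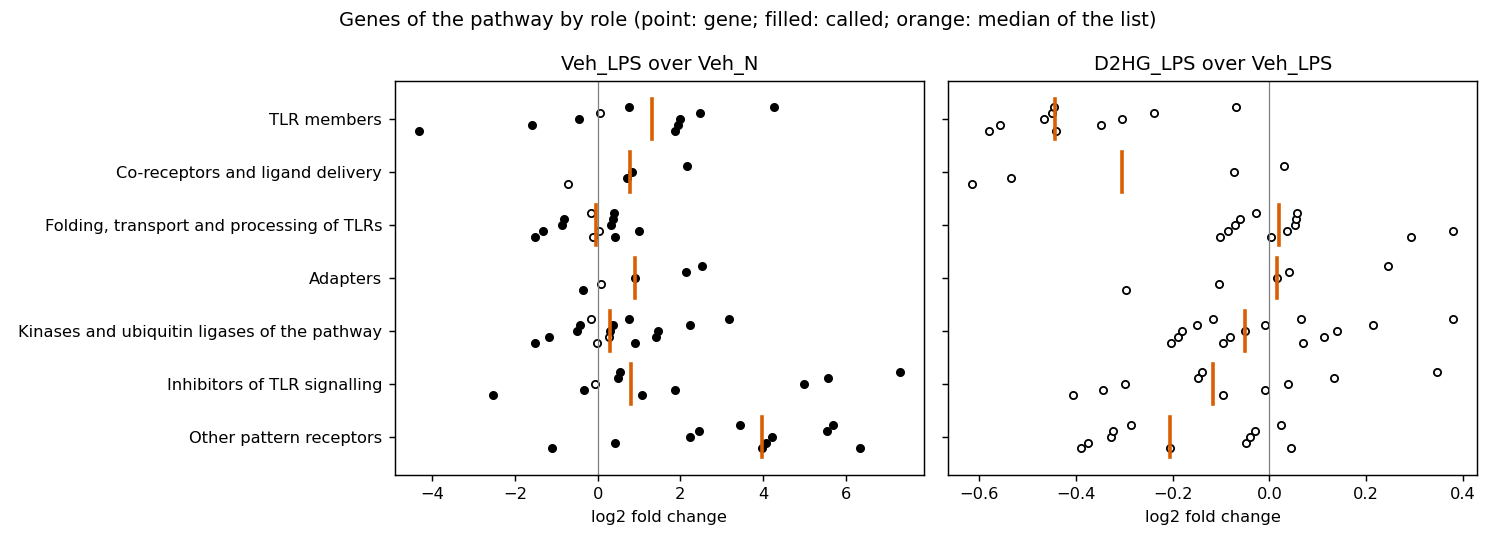
Log2 fold changes by edgeR (horizontal axes) of each gene in the Toll-like receptor list, the 5 lists of the pathway and the list of other pattern receptors, in Veh_LPS over Veh_N (left) and D2HG_LPS over Veh_LPS (right), filled where called, with the median of each list in orange. The left panel holds filled points on both sides of 0 and medians up to 3.99 (other pattern receptors), and every point in the right panel is open.

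For each member, the 2 genes of most similar pattern over the 9 libraries were found among 7997 genes whose mean log2 CPM was 3 or more, by the root mean square difference of log2 CPM after centring each gene. Tlr9 was nearest to Notch1 (0.0568) and Sh3bp5 (0.0667), Tlr7 to Ly96 (0.0603) and Vbp1 (0.0997), and Tlr1 to Eif4g2 (0.0634) and Ccdc50 (0.0786). Tlr3 was nearest to Gbp7 (0.0814) and Slamf7 (0.120), Tlr2 to Tnfrsf1b (0.0893) and Klf6 (0.0932), and Tlr6 to Tfg (0.0862) and Usp15 (0.0893). Tlr4 was nearest to Wdr44 and Smc4 (both 0.111), Tlr8 to Mbnl1 (0.0707) and Osbpl8 (0.0728), and Tlr13 to Rb1 (0.0929) and Slc39a10 (0.120). Tlr5 had no gene closer than Tnrc6b (0.303). The number of genes within 0.2 ranged from 0 for Tlr5 and 22 for Tlr3 to 214 for Tlr9. Notch1, for example, measured 46.9 to 47.5 CPM in Veh_N, 172 to 203 in Veh_LPS and 145 to 168 in D2HG_LPS. All these genes share the same libraries, depth and scaling with the members.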

How the data were processed

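RNA was measured in 9 libraries, grouped by their titles and treatment labels. The authors deposited raw read counts for 35745 RefSeq transcripts, of which 117 matched no gene and were left out (0.676% to 2.37% of a library's counts). STAR 2.5.2b, DESeq2 and the builds mm10 and mm9 are named per the submitters' processing notes, and libraries were strand-specific per the labels' protocols. The counting program, its annotation and the use of strand are not stated in the sources used here. Counts were tested with edgeR 4.0.16 (R 4.3.3; limma 3.58.1): filterByExpr (11622 genes of 16158 with counts), TMM factors 0.831 to 0.887 in LPS groups and 1.338 to 1.351 in Veh_N, glmQLFit with robust=TRUE over all libraries, glmQLFTest, two-sided, Benjamini-Hochberg adjusted p below 0.05. The fits were tested on simulated data. SE is the log2 fold change divided by the root of F. Transcript lengths are those of GENCODE vM21. Depth limits genes with few counts, Tlr5 above all, and intervals cover counting error only. Alternatives were limma-voom, DESeq2 1.42.0, other scalings, filters, isoform sums, sample sets, the replicate block and leaving out libraries. Members and lists were chosen with earlier results of these data known. Named genes were all members, up to 4 of smallest p per list and comparison, and the 2 nearest patterns. Sigirr, an inhibitor that fell under LPS, and the markers of cell types are named outside this rule. One list of cell markers is not reported here.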

Additional observations from a re-analysis of the deposited data

How the results depend on the processing

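The counts of members here include Tlr5, for which no test is given above. Under the alternatives 8 or 9 members were called in Veh_LPS over Veh_N. With the settings of the report 9 were, or 6 higher and 2 lower without Tlr5. Calls over all tested genes ran from 8113 of 11707 to 9701 of 11622. In D2HG_LPS over Veh_N 8 to 10 members were called (8 with the settings of the report, or 5 higher and 2 lower without Tlr5). Calls over all tested genes were 7937 of 11707 to 9461 of 11622 there. In D2HG_LPS over Veh_LPS the 0 calls became 2 with DESeq2, 1 with RLE scaling, 2 with no filter on low counts and 2 in a fit of only both groups, where Tlr5 could not be fitted, and 0 to 4 when single libraries were left out (4 without Veh_N replicate 1, 2 without Veh_N replicate 3, 1 without Veh_LPS replicate 2). They became 4 without Veh_N replicate 1 and Veh_LPS replicate 3 together. With the log2 share of unmatched counts, most of them in 1 transcript, as a covariate they became 7. Both settings were chosen after seeing the data. The cause was not tested. All calls were lower. Signs turned for Tlr8 under LPS with upper-quartile scaling (-0.27), library totals (-0.62) and over single libraries left out (-0.16 to 0.28), for Tlr7 in D2HG_LPS over Veh_N with upper-quartile scaling (-0.11) and library totals (-0.42), and in D2HG_LPS over Veh_LPS for Tlr2 (-0.14 to 0.040 with single libraries left out, highest without Veh_LPS replicate 3, and 0.040 without both) and Tlr5 (-1.04 to 0.32 with single libraries left out, above 0 without Veh_LPS replicate 1 or D2HG_LPS replicate 2). The Tlr4 call under LPS was lost with DESeq2, RLE scaling, no filter and only both groups too (log2 fold changes -0.44 to -0.39). Same-numbered libraries deviated with r from -0.457 to 0.191 and so were not paired. With the replicate block 8, 0 and 8 members were called in Veh_LPS over Veh_N, D2HG_LPS over Veh_LPS and D2HG_LPS over Veh_N, and Tlr4 under LPS was -0.44 with an edgeR adjusted p of 0.0628, the only member whose call the block changed. Over all tested genes D2HG_LPS over Veh_LPS gave 245 calls, 54.7% of them higher, but 522 (34.3%) with DESeq2, 265 (40.8%) with RLE scaling, 285 (74.4%) with library totals, 450 (43.8%) with only both groups, 93 with the block, 64 to 501 with single libraries left out, 565 without both and 1058 (42.8%) with the covariate. In Veh_LPS over Veh_N the share of higher calls went from 47.4% to 33.1% with upper-quartile scaling and 21.8% with library totals, and in D2HG_LPS over Veh_N from 48.8% to 34.4% and 23.02%, where the median of all genes moved by -0.30 and -0.61. Tlr5 counts of 0 to 2 per LPS-treated library allow no comparison of the ester at this depth.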

Other observations

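Most of the other pattern recognition receptors listed here rose under LPS. Of 11 listed, 10 were called higher and 1 lower by edgeR in Veh_LPS over Veh_N, with a median log2 fold change of 3.99 (35% of all tested genes were called higher). The cytosolic RNA sensor Ifih1 (MDA5) was at 5.68 ± 0.16, Ddx58 (RIG-I) at 4.22 ± 0.12, and the peptidoglycan sensors Nod1 and Nod2 at 3.99 ± 0.08 and 3.43 ± 0.09. Clec7a (Dectin-1), a receptor for fungal beta-glucan, fell by 1.11 on the log2 scale. The ratio of Tlr3 to Ifih1 counts went from 0.412, 0.339 and 0.409 in Veh_N to 0.146, 0.132 and 0.153 in Veh_LPS, and was 0.142, 0.140 and 0.136 in D2HG_LPS. That of Tlr3 to Ddx58 overlapped between the 3 groups, at 0.213 to 0.345, 0.257 to 0.318 and 0.253 to 0.258.

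In D2HG_LPS over Veh_LPS none of these 11 was called by edgeR, where 2.11% of all tested genes were called. At an unadjusted p below 0.05, 4 were lower, against 7.71% of all tested genes lower at that level. They were Ifih1 at -0.39, Clec7a at -0.37, Dhx58 (LGP2) at -0.33 and Ddx58 at -0.29. The remaining mouse receptors of the family were hardly present. Tlr11 had 0, 3 and 0 counts in Veh_N, 7, 3 and 8 in Veh_LPS and 7, 4 and 5 in D2HG_LPS, and Tlr12 had 0 to 3 counts in every library, so neither was tested.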
